A study of Mus musculus with 2 samples.

Results

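The p53 family and its Mdm regulators were examined in mouse embryonic stem (ES) cells that lived on either Baf53a or Baf53b. The genes are Trp53, Trp63 and Trp73, which encode the transcription factors p53, p63 and p73, and Mdm2 and Mdm4, which encode the main inhibitors of p53. Members were the gene probes whose RefSeq accession belongs to 1 of these 5 genes. There were 9 such probes among the 39411 gene probes that could be read on both arrays, and 5 such genes among 20823.

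RNA came from Baf53a cKO ES cells, 1 clone derived from E14 ES cells in which both alleles of Baf53a carry CRISPR/Cas9 deletions and survival rests on a resistant Baf53a cDNA that tetracycline (Tet) shuts off. The cells of both groups were grown with LIF on gelatin, transfected with a pCAGIP-Myc vector and, 48 h later, given 1 μg/mL Tet for 6 days, which is meant to shut off the inducible Baf53a in both groups. The Baf53a-expressing cells received the vector for Myc-tagged Baf53a and the Baf53b-expressing cells that for Myc-tagged Baf53b, the homologue found in neurons. Each group was read on 1 array, from 1 pair of RNA samples, and there was no array of cells without either protein or of untreated cells. Differences therefore could not be set against replicates, and neither tests nor p-values are given. In bulk RNA such as this, fewer cells of a type and less RNA per cell cannot be told apart.

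The p53 protein is held at a low level by Mdm2, a ubiquitin ligase that marks it for destruction, and is held inactive by Mdm4, a relative of Mdm2 that binds p53 and has little ligase activity of its own. Damage or a shortage of ribosomes frees p53, which then switches on genes of cell cycle arrest and death and also Mdm2 itself, closing a feedback loop. p63 and p73 have a DNA-binding domain close to that of p53, and both are made as long forms and as forms that lack the first activation domain, from separate promoters. p63 is known for building stratified epithelia and for guarding oocytes, and p73 for multiciliated cells and neurons. ES cells are rich in p53 message and protein and die readily when p53 is active. The comparison asks whether cells kept alive by Baf53b differ from those kept alive by Baf53a in the messages of this family.

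Of the 6 reference promoters given for 4 of the members in the RefSeq table of assembly GRCm38.p6, both starts of Trp73 are shown, because Trp73 is a member of the family that is itself open to regulation by p53 proteins through its inner start. Each sequence runs from 250 bases before to 50 bases after a start, 5′ to 3′ on the minus strand of chromosome 4. The capitals mark the whole stretch called a match to the p53 element, its mismatched letters included. The element was taken as a pair of adjoining p53 half-sites, 20 bases in all. The C and G of both cores were kept, with at most 2 mismatches elsewhere. The element reads the same on both strands.
Trp73 inner start, chr4:154097124-154097423: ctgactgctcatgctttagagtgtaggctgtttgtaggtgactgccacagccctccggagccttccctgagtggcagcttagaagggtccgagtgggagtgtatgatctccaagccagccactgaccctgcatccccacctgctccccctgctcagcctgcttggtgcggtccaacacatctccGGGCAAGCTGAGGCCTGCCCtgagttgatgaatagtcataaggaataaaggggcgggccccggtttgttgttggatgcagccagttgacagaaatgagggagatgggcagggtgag
Trp73 outer start, chr4:154139826-154140125: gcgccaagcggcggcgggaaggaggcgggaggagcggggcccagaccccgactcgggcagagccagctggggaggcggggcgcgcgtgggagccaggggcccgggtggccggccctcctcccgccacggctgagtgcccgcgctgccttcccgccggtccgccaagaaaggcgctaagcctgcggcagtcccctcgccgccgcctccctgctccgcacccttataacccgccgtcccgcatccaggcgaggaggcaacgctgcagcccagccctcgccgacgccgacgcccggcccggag
The match in the inner promoter, GGGCAAGCTGAGGCCTGCCC, began 66 bases before the start and had 2 mismatches. In the windows searched, the outer promoter held no match, nor did the promoters of Trp53 and Mdm2 or the pair given for Mdm4. Bases outside these windows were not searched, nor were p53 elements whose parts do not adjoin. The lack of a match therefore does not show that Mdm2 or another member lacks a p53 element. Among all 32851 promoters of the table, 107 held the element, or 0.326%. A match is a description of letters and not a site of binding, and the array build, mm9, differs from that of these sequences. Which start the Trp73 probes read was not analysed here.

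The arrays were compared as follows. The processed signal, which is the spot brightness after background subtraction and spatial detrending, was put on the log2 scale relative to the 75th percentile signal of its array, 1161 for Baf53a- and 1127 for Baf53b-expressing cells. A difference is always the log2 level in Baf53b- minus that in Baf53a-expressing cells. A probe was measured when it was well above background on both arrays, as held for 29247 probes. Their median difference was -0.0013 with an SD of 0.206, and no spot was saturated. The transfected genes were read first. Actl6b, the gene of Baf53b, gave a processed signal of 119 on the array of Baf53b-expressing cells and of 3.40 on the other, where it did not pass the background flag, which makes it at least 14.5-fold higher. Such a bound replaces the dim value by the lowest signal that passed the flag on its array, unless the dim value itself is larger. Among all probes, 2.18% passed the flag in Baf53b-expressing cells alone, and 9.44% of those had a bound of at least 2-fold. The probe of Actl6a, which encodes Baf53a, had signals of 3806 and 3600, a difference of -0.04, and so did not tell the groups apart. It showed neither an excess of Baf53a message in the cells given Baf53a nor a loss in those given Baf53b, and the shut-off of the inducible Baf53a was not tested here. All 8 genes of a list of ES cell markers, Pou5f1 and Nanog among them, were measured in both groups, 2 higher and 6 lower, with a median of -0.05. All 6 markers of primitive endoderm were higher, with a median of 0.24 and a summed level, in units of the 75th percentile signal, of 1.75 in Baf53a- and 2.06 in Baf53b-expressing cells. Summed levels were likewise 17.8 and 19.7 for 5 markers of neurons and 1.40 and 1.38 for 5 of fibroblasts, with medians of 0.11 and 0.12. Of the neuronal markers, Snap25 had 0.35 and Tubb3 -0.15, and Map2 and Rbfox3 each had a probe that passed the flag in Baf53b-expressing cells alone. The bounds of these probes were only 1.505-fold and 1.23-fold, and both genes also had a probe measured in both groups. These marker values stand beside a trend with brightness. The measured probes were ranked by mean level and cut into 5 groups. The median difference was 0.10 in the dimmest group and -0.06 in the brightest. Of all genes measured, 49.2% lay above 0. The part of this trend in the marker values was not tested, nor was the part of cells of these types in the values below.

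Of the 9 member probes, 8 were measured in both groups and 1, a probe of Trp63, was well above background in Baf53a-expressing cells alone. None of the 8 was 2-fold apart, beside 0.253% of all measured probes. Their differences ran from -0.22 to 0.38 with a median of 0.05, and 5 lay above 0 and 3 below. Of the 8, 7 differed by less than 0.25, as did 84.2% of all probes. Trp53 and both probes of Mdm4 had lower values in Baf53b-expressing cells, while the measured Trp63 probe, all 3 probes of Trp73 and the Mdm2 probe had higher ones.

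**Figure D1:**
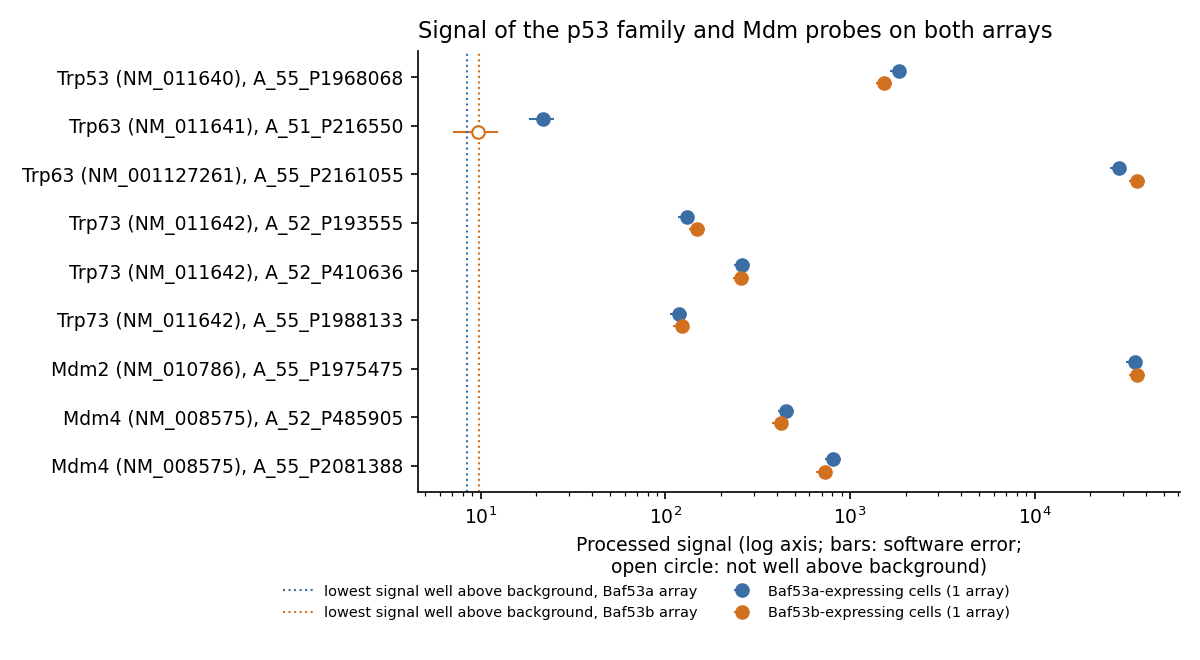
Processed signal (x axis, log scale) of the 9 member probes on the array of Baf53a-expressing cells (blue) and that of Baf53b-expressing cells (orange), with the error the extraction software gives as bars; dotted lines are the lowest signals well above background, 8.45 and 9.75, and an open circle is a value not well above background. The pair of points lies close together for every probe except the dim Trp63 probe, 21.6 against 9.71.

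Each difference is set beside 3 yardsticks, all within this pair of arrays. The first is the spot SD, which is the SD of a difference between single spots of 1 probe, taken from probes printed several times in the same brightness group, the measured probes being ranked by mean level and cut into 5 groups. It was 0.274 in the dimmest group and 0.0590 in the brightest. The second is the share of probes in the brightness group that lay at least as far apart. The third is the error that the software attaches to the processed signal, about 0.204 on a log2 difference for bright probes. None of them holds the spread between cultures.

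Trp53 encodes p53, the transcription factor that the others relate to, and was read by 1 probe (A_55_P1968068, NM_011640) with 1 spot per array. Its processed signal was 1831 in Baf53a-expressing cells and 1528 in Baf53b-expressing cells, or log2 levels of 0.66 and 0.44. The message thus stood at 85.9% of its level in Baf53a-expressing cells, a log2 difference of -0.22. This was 3.30 times the spot SD of its brightness group, 0.0664, and about equal to the software error of 0.204. In the same brightness group, 425 of 5849 probes (7.27%) lay at least as far from 0 in either direction, and 197 were at least as low. A difference of this size was therefore larger than the noise between spots but not rare among probes of like brightness. Under the other ways of processing it lay between -0.30 and -0.17, below 0 in each of 12. Settings that changed only filters, flags or outlier spots, or that used the authors' ratios, reused the same signals. They could hardly move this or any other measured member. Spike-in scaling gave the lowest value and background correction by normexp the highest.

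Trp63 encodes p63, and its probes gave opposite directions, 1 of them near the background. The probe A_55_P2161055, which carries the accession NM_001127261, had a processed signal of 28543 in Baf53a-expressing cells and 36011 in Baf53b-expressing cells. The log2 difference was 0.38, or 1.30-fold, the highest among the members. That was 6.39 times the spot SD of the brightest group. Of the 5850 probes in the brightest group, 39 (0.667%) lay at least as far apart, of which 25 were higher in Baf53b-expressing cells. The software error of the difference was 0.204.
The probe A_51_P216550, which carries the accession NM_011641, had a processed signal of 21.6 in Baf53a-expressing cells and 9.71 in Baf53b-expressing cells. It was well above background in the first and not in the second, where it lay just under the lowest signal so called, 9.75. The spot's median pixel was 46.5 over a local background of 32.5 on the first array and 36.0 over 27.5 on the second. The log2 values as read lay -1.11 apart, but the second is not a measured level, so that only a bound is given. Under the reported processing, that bound came to 2.15-fold in favour of Baf53a-expressing cells. It is not a firm minimum. The bound rests on 1 spot per array and on the lowest signal well above background of any probe. The software error of the log2 difference as read was 0.456. Among all probes, 0.959% were seen in Baf53a-expressing cells alone, and 11.6% of those had a bound of at least 2-fold. The bound came close to nothing, 0.06 on the log2 scale, when the background was corrected by normexp with an offset of 50, which draws dim signals together.
The first probe stood 3380 and 3692 times above the lowest signal well above background on its array, and the second 2.56 times above it in Baf53a-expressing cells. Of 1354 genes that had a probe in the brightest group and another probe, 58 (4.28%) had a probe not well above background on both arrays, Trp63 among them. The table lists 8 curated Trp63 messages, and which of them each probe reads was not analysed here. The Trp63 probes thus gave no single direction in these data, and whether the bright probe reads only p63 message was not tested.
A list of epithelial genes downstream of p63 was read beside it. All 10 were measured, 6 higher and 4 lower, with a median of 0.02, and none was 2-fold apart. The split was 3 and 7 with arrays centred on the median or with spike-in controls set equal, and 5 and 5 under quantile normalization or cyclic loess. Jag2, a Notch ligand, was at the top with 0.19, and Satb1, a chromatin organizer, at the bottom with -0.14. Of 5 markers of stratified epithelium, 3 were measured, Krt5, Krt14 and Krt15, all of which are also in the list above, and their differences ran from -0.13 to 0.05. Krt14, a keratin of basal cells, had -0.13. Dsg3, a desmosomal cadherin of such epithelia, was not well above background in either group, and Col17a1, a collagen of hemidesmosomes, passed the flag in Baf53b-expressing cells alone. The summed level of these 5 markers was 0.296 in Baf53a- and 0.290 in Baf53b-expressing cells, beside the higher value of the bright Trp63 probe. Their part in that value was not tested.

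Trp73 encodes p73 and was read by 3 probes that carry the same accession, NM_011642, with 1 spot each per array. The probe A_52_P193555 had signals of 130.25 in Baf53a- and 149 in Baf53b-expressing cells, a difference of 0.24. The probe A_52_P410636 had 261 and 258, a difference of 0.02. The probe A_55_P1988133 had 118 and 122, a difference of 0.09. All 3 were positive in sign, with a mean of 0.12, although the sign of the second depended on the scaling.
The first difference was 1.997 times the spot SD of its brightness group, 0.119, and the others 0.281 and 0.778 times those of theirs. In their brightness groups 22.2%, 87.5% and 61.0% of the probes lay at least as far apart. Those groups as a whole were centred at 0.05, 0.02 and 0.05. Of their probes, 31.9%, 98.1% and 83.8% lay at least as far from that centre as the Trp73 probe. The software errors were 0.206, 0.205 and 0.209. Among 584 genes with 3 measured probes, 47.3% had all 3 of the same sign, so that this feature of Trp73 is common on these arrays. The span between its probes, 0.21, was matched or passed by 37.3% of such genes, with a median span of 0.17. The second probe, A_52_P410636, lay between -0.06 and 0.05, below 0 in 5 of 12 ways of processing. The other 2 stayed above 0 in each of them.
Of the 4 genes of ciliogenesis downstream of p73, 2 were higher and 2 lower, with a median of 0.01. They ran from Rfx2, a transcription factor of cilium genes, at -0.21 to Traf3ip1, a protein of transport within the cilium, at 0.33. Foxj1, the regulator of motile cilia, had 0.10.

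**Figure D2:**
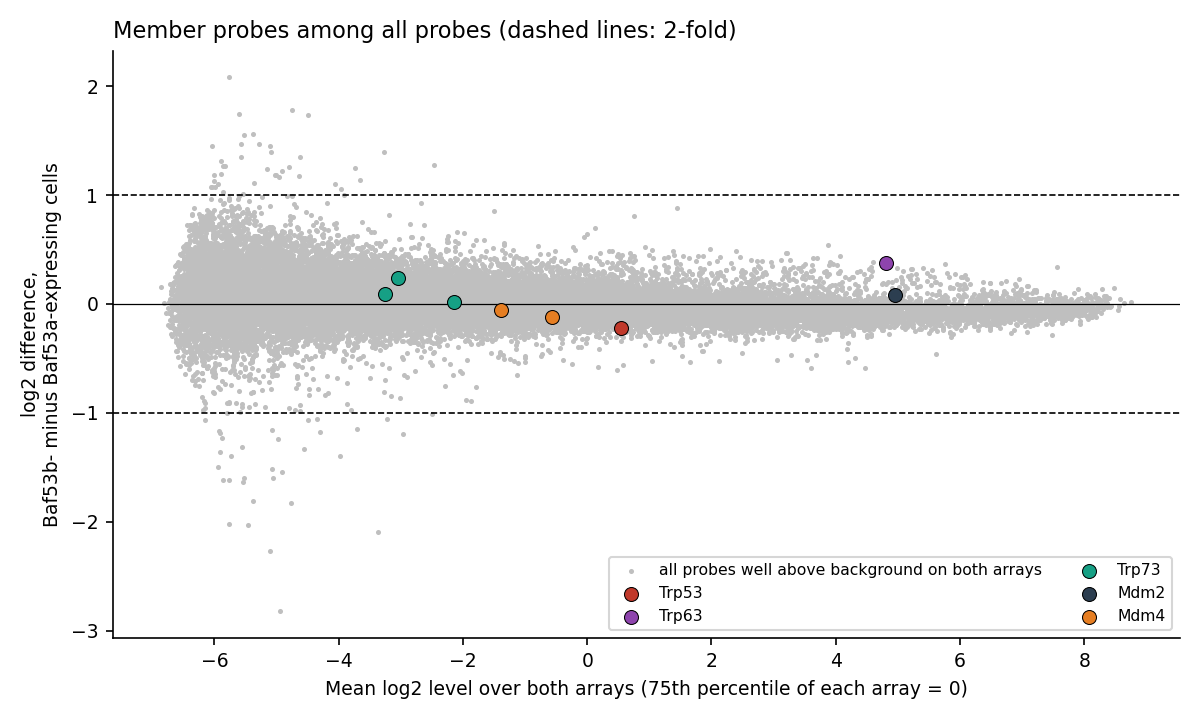
The log2 difference, Baf53b- minus Baf53a-expressing cells (y axis), against the mean log2 level over both arrays (x axis) for 29247 probes well above background on both (grey) and the 8 measured member probes (coloured by gene); dashed lines mark 2-fold. The Trp63 point, at 0.38, lies at the upper edge of the grey cloud at its level, and the other 7 lie inside the cloud.

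Mdm2 encodes the ligase that removes p53 and is itself a target of p53. Its probe (A_55_P1975475, NM_010786) had a signal of 34807 in Baf53a-expressing cells and 35897 in Baf53b-expressing cells, or 4.91 and 4.99 on the log2 scale. The difference of 0.09, or 1.06-fold, was 1.47 times the spot SD, and the software error was 0.204. In the brightest group 47.5% of the probes lay at least as far apart. That group as a whole was centred at -0.06, and 12.0% of its probes lay at least as far from that centre as Mdm2. Across the ways of processing the value ran from 0.0085 to 0.15 and stayed above 0. The Mdm2 and Trp53 values thus had opposite signs.

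Mdm4 encodes the partner of Mdm2 that masks the activation domain of p53, and both of its probes carry NM_008575. The probe A_52_P485905 had signals of 450.3 and 421 in Baf53a- and Baf53b-expressing cells, a difference of -0.06. The probe A_55_P2081388 had 812 and 727, a difference of -0.12. These were 0.702 and 1.77 times the spot SD, and 68.2% and 29.3% of the probes of like brightness lay at least as far apart. The software error was 0.204 for both.
Their mean was -0.09, and the probes lay 0.06 apart, a span matched or passed by 66.0% of 3521 genes with 2 measured probes. In 62.7% of such genes both probes had the same sign. Both Mdm4 probes stayed below 0 in each of 12 ways of processing, between -0.20 and -0.03.

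**Figure D3:**
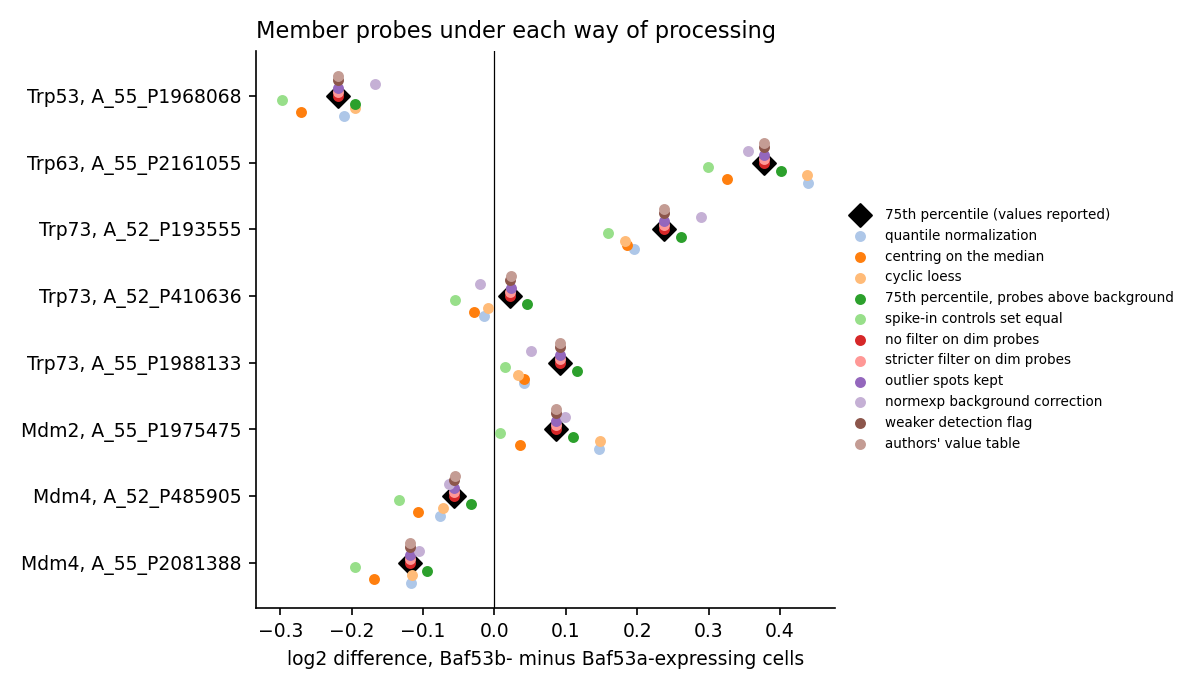
The log2 difference, Baf53b- minus Baf53a-expressing cells (x axis), of the 8 measured member probes under the reported scaling (black diamonds) and 11 other ways of processing (circles). The Trp53 and Mdm4 probes stay left of 0 and the Trp63, Mdm2 and 2 of the 3 Trp73 probes right of 0, while A_52_P410636 of Trp73 falls on both sides.

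The genes that act on p53 or answer to it were read as lists, with 1 value per gene, the mean over its measured probes. Over all 16608 genes measured, the median was -0.0031, 49.2% lay above 0 and 0.193% were 2-fold apart. None of the genes of the 7 lists was 2-fold apart. The lists were chosen with earlier results of these data known, and their counts are descriptions. With medians this close to 0, the split into higher and lower genes turned with the scaling of the arrays in all but the list of ciliogenesis genes, and no direction is given for a list.
The ubiquitin ligases and deubiquitinases that act on the family numbered 18, of which 9 were higher and 9 lower, with a median of 0.0060. The split was 13 and 5 under cyclic loess and 2 and 16 with spike-in controls set equal. Wwp1, a ligase of p63, was at the top with 0.24 and Nedd4, a ligase that binds Mdm2, at the bottom with -0.17. Usp7, which removes ubiquitin from p53 and Mdm2, had 0.02.
The list of kinases and a phosphatase upstream of p53 held 12 genes, 8 higher and 4 lower, with a median of 0.02. It became 4 higher and 8 lower with arrays centred on the median or with spike-in controls set equal. The list ran from Dyrk2, a kinase of p53, at -0.13 to Chek2, a checkpoint kinase, at 0.14. Atm, the kinase that answers to broken DNA, had 0.04, and Ppm1d, the phosphatase that ends the response, had 0.12.
The 11 nucleolar and ribosomal proteins that inhibit Mdm2 had 5 higher and 6 lower genes, with a median of -0.02. The split was 10 and 1 under cyclic loess, 9 and 2 under quantile normalization and 1 and 10 with spike-in controls set equal. Cdkn2a, whose product Arf binds Mdm2, was at the top with 0.12 from probes at 0.10 and 0.13. Those probes do not tell Arf from p16, the other product of the gene, as no probe position was analysed here. Rpl5, a ribosomal protein that binds Mdm2, was at the bottom with -0.09.
The 21 modifiers and cofactors of p53 had 9 higher and 12 lower genes and a median of -0.02. It was 12 and 8 under quantile normalization, 6 and 15 with centring on the median and 4 and 17 with spike-in controls set equal. Crebbp, an acetyltransferase of p53, had 0.26 and Ep300, its relative, 0.15, while Kat8, another acetyltransferase, had -0.15. Kat5, the Tip60 acetyltransferase that shares complexes with Baf53a, had 0.02 and Trp53bp1, which binds p53, had 0.06.

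The 26 targets of p53, all measured, had 17 higher and 9 lower genes and a median of 0.04, with values from -0.11 to 0.24. Ddit4, an inhibitor of mTORC1, was at the top with 0.24, and Pml, the organizer of nuclear bodies, at the bottom with -0.11 from probes at -0.22 and -0.0067. Cdkn1a, which encodes p21 and stops the cell cycle, had -0.06 from a probe with 10 spots per array and signals of 2941 and 2741.5, and 0.0012 from a probe with signals of 123 and 119.8. Ccng1, which recruits a phosphatase to Mdm2, had 0.12, and Trp53inp1, a cofactor in p53-driven death, had 0.17. Among genes of cell death, Perp had 0.19, Bax -0.04, Bbc3, which encodes Puma, -0.09 and Pmaip1, which encodes Noxa, -0.02. Other such genes of the list were Apaf1 with 0.13, Eda2r 0.10, Aen 0.05, Ei24 0.03, Tnfrsf10b 0.03 and Fas -0.01. With arrays centred on the median, 12 were higher and 14 lower, and with spike-in controls set equal, 11 and 15, while under quantile normalization it was 21 and 5.

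**Figure D4:**
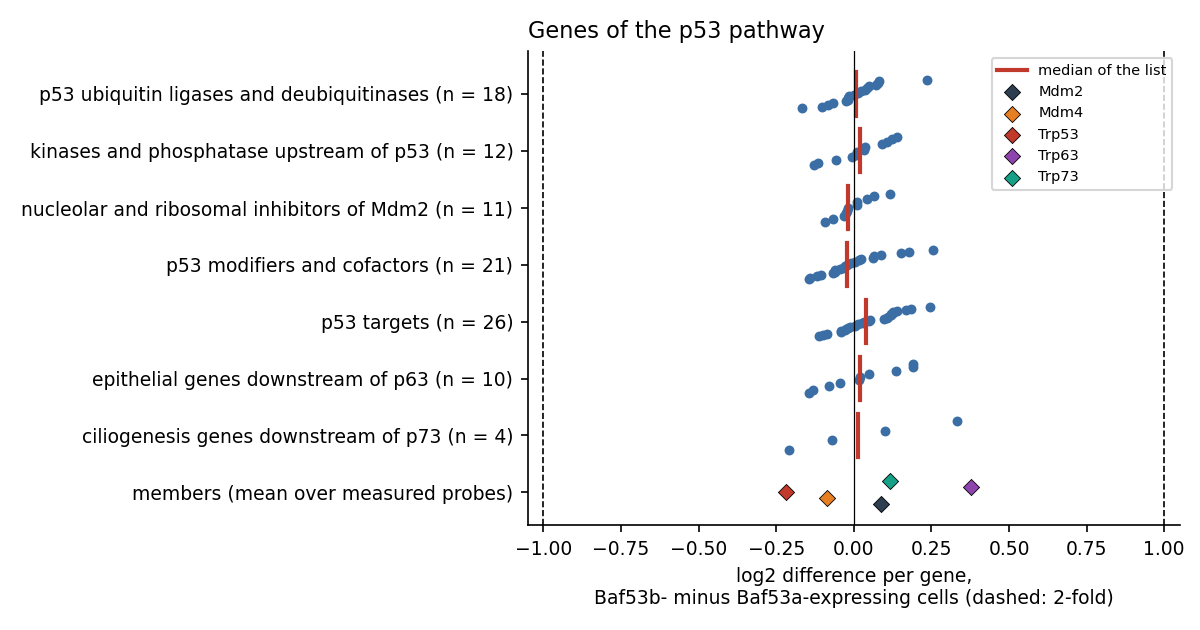
The log2 difference per gene, Baf53b- minus Baf53a-expressing cells (x axis), for the genes of 7 lists of the p53 pathway (blue points, 1 per gene; red lines, list medians) and for the 5 members (diamonds, means over measured probes); dashed lines mark 2-fold. All genes of the lists lie between -0.21 and 0.33, and the Trp63 diamond, at 0.38, lies to the right of every gene of the lists. That diamond rests on 1 of the 2 Trp63 probes, as the other was not measured in both groups.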

How the data were processed

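Gene expression was measured on 2 one-colour Agilent mouse arrays, 1 per condition. Images were read by the authors in Feature Extraction 11.0.1.1, and the deposited files hold intensities per spot, background-subtracted and spatially detrended but not normalized between arrays, with flags and error estimates. They also deposited a table of 30488 ratios, which equalled the processed signal divided by 1 number per array (1160 and 1126) within 0.1% for all probes compared. Per the labels, 0.2 μg RNA was labelled with Cy3.

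Without control and outlier spots, the mean log2 signal of each probe was taken, and each array's 75th percentile was set to 0. The background flag had to hold for 50% or more of the spots of a probe, which held for 75.2% and 76.4% of the probes. Symbols came from RefSeq accessions (27410 probes). The members and gene lists were chosen with earlier results of these data known. The text names every member probe, Actl6a, Actl6b, Cdkn1a, and from each list the genes with the highest and the lowest difference and any at least 2-fold apart; other genes of the lists were named after their values were seen. The precision is limited by the number of arrays. Alternatives were run in Python 3.11.15 (numpy 2.4.6, pandas 2.3.3) and R 4.3.3 (limma 3.58.1). The steps were tested on simulated data of 29247 probes, where all 200 probes changed by 2 on the log2 scale were found and 0 others. Those changes were far larger than the member differences, and every simulated probe was taken as above background. The simulation therefore checks the code and cannot show how well differences of the reported sizes or dim probes are read.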

Additional observations from a re-analysis of the deposited data

How the results depend on the processing

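Of the 8 measured member probes, 7 kept their sign under each of 12 settings, the exception being A_52_P410636 of Trp73. Settings that changed only the filter, the flag or the outlier spots, and the authors' ratios, reused the same signals and could hardly change a sign. Quantile normalization gave 0.44 for the bright Trp63 probe and 0.15 for Mdm2, and cyclic loess 0.44 and 0.15. With the 8 spike-in controls set equal, every difference was shifted by -0.0780, which made the median of the members -0.0235, Trp53 -0.30, the bright Trp63 probe 0.30, Mdm2 0.0085 and the Mdm4 probe A_55_P2081388 -0.20. Without a filter on dim probes, or with the weaker detection flag, the dim Trp63 probe counted as measured, with -1.11, so that 1 member probe was 2-fold apart, beside 3.39% and 2.24% of all probes under those settings, and Actl6b differed by 5.17. Normexp was used on the median signal because the mean signal was not analysed here. On the log2 scale, it lowered the bound of the dim Trp63 probe from 1.105 to 0.0567 and that of Actl6b from 3.86 to 1.52. It gave the genes downstream of p73 a median of 0.12. In the authors' value table the Actl6b bound was 3.58 on the log2 scale. Apart from the filter and the uniform shift of the spike-ins, the cause was not tested. The offset of normexp was not varied, and the input signal changed along with it. Centring on the median, the 75th percentile over probes above background, a stricter filter on dim probes and keeping outlier spots moved no member by more than the spot SD of its brightness group. No paired analysis was possible because each group held a single array, which also leaves no replicate to omit. Signal over background limits the dim Trp63 probe alone among the members.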

Other observations

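The genes that lie next to the members in the RefSeq table were also read, 1 on each side. Of these 10 neighbours, 9 were measured and none was 2-fold apart. On either side of Trp63, Tprg had -0.32 and P3h2, a collagen hydroxylase, -0.22, both below 0, while the bright Trp63 probe had 0.38. The dim Trp63 probe, not measured in both groups, read lower in Baf53b-expressing cells, as both neighbours did. Next to Trp53, Wrap53 had -0.02 and Atp1b2, a subunit of the sodium pump, had -0.13, beside -0.22 for Trp53. Next to Mdm2, Cpm, a carboxypeptidase, had 0.18 and Slc35e3 had -0.12. Next to Mdm4, Pik3c2b, a lipid kinase, had 0.08 and Lrrn2 -0.12. Wrap73, beside Trp73, had -0.08, and Ccdc27 on its other side was not well above background in either group. The assembly of that table differs from the build of the array and was used for the order of genes only.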
